A study of Mus musculus with 16 samples.

Results

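The genes described here encode the chains of the integrins and the laminins. They were taken from a table of mouse gene expression by name, as every gene whose name starts with Itga or Itgb, without the integrin binding proteins, or with Lama, Lamb or Lamc and a number. This gave 39 of 22552 genes, 28 with integrin names and 11 with laminin names. One of them, Itgbl1, encodes a protein related to the integrin beta chains but is not a chain. A mean of at least 0.5 FPKM (fragments per kilobase of transcript, scaled to the mapped fragments of a library) over the 16 cell lines was reached by 25 of the 39, 17 integrin and 8 laminin names, and only these were tested. The last to reach it was Itgb8 at a mean of 0.537 FPKM, and the first to miss it was Itgal at 0.442 FPKM.

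Integrins are receptors that span the cell membrane, each built from an alpha and a beta chain, and they hold cells to the surrounding matrix and pass signals in both directions. Laminins are matrix proteins of the basement membrane, each assembled from an alpha, a beta and a gamma chain. In mouse embryonic stem cells, laminins with the alpha1 or alpha5 chain and the receptor of the integrin alpha6 and beta1 chains are well-known parts of this contact, whereas collagen receptors such as the one with the alpha11 chain are typical of fibroblasts.

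The study asked which genes follow the pluripotency state of reprogrammed cells. All cells carried the strain label 129-M2rtTA and went back to adipocyte progenitor cells of mice made entirely from 1 iPSC line. The 9 AN lines were embryonic stem cells made by transferring the nuclei of these cells into oocytes, at passage 5 to 7. The 7 AI lines were induced pluripotent stem cells made from them with doxycycline, of which AI3, AI7, AI9 and AI10 were new, at passage 7, and GS4, GS9 and GS32 were older, at passage 17, 6 and 13.

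By tetraploid complementation, in which only the injected cells can form the embryo proper, the study called AN1, AN9, AN15 and AN20 fully pluripotent (AN F) and AN2, AN3, AN5, AN6 and AN7 partially reprogrammed (AN P). It called AI3, AI7, AI10 and GS32 fully pluripotent (AI F) and AI9, GS4 and GS9 partially reprogrammed (AI P). The labels give the line and the kind of cell, and the class was matched to each line by its name. Each line was 1 library, so a line is the replicate, and the p-values measure the spread between lines. The source entries of GS9 and GS32 name GS4, in conflict with their titles, so the main values of the AI comparison are also given without them. AN lines were first grown out on feeder layers of mouse embryonic fibroblasts, and whether feeder cells were removed before RNA extraction is not stated in the study's methods.

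The FPKM values per line summed to between 661973 in AI3 and 963434 in GS9, and the next highest sum was 850700 in AN9. The sequencing depth relative to AN1, estimated from the commonest ratio between values under 0.5 FPKM, ran from 0.956 to 1.25. Of 9 pluripotency markers, 8 were in the table and all 8 were expressed, at a mean log2(FPKM + 1) of 6.60 in AN6 to 7.67 in GS4. All 20 markers of fibroblasts were expressed as well, with a mean log2(FPKM + 1) from 3.59 in GS9 to 5.51 in GS32. In these bulk samples, fewer cells of a type and less RNA per cell cannot be told apart.

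By transcript level, Itgb1 dominated the integrin beta names in both AN and AI lines. Itgb1, the beta chain that pairs with most alpha chains, had a mean of 278 FPKM and held a median of 89.3% of the FPKM of the 9 integrin beta names. It ranged from 180.5 FPKM in GS9 over a median of 257 FPKM to 418 FPKM in GS32. The next beta chain was Itgb5, a partner of the alpha v chain, at a mean of 23.5 FPKM, and Itgb7, known from lymphocytes, followed at 3.43 FPKM.

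Among the 18 integrin alpha names the level was spread over more genes. Itga5, the fibronectin receptor chain, held a median of 36.7% of their summed FPKM, Itga6, a laminin receptor chain, 24.1%, and Itga3, another laminin receptor chain, 15.1%. Their mean levels were 36.2, 23.0 and 15.8 FPKM, and Itgav, which binds vitronectin and other ligands with the RGD motif, followed at 8.09 FPKM. Itga11, the collagen receptor chain of fibroblasts, had a mean of 5.42 FPKM.

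The laminin transcripts were dominated by the chains of laminin-511. Lama5 held a median of 75.1% of the laminin alpha FPKM, Lamb1 86.8% of the beta FPKM and Lamc1 90.5% of the gamma FPKM. Lamb1 and Lamc1 had nearly equal means of 46.1 and 45.7 FPKM, and Lama5 had 20.6 FPKM. Lama1, the alpha chain of laminin-111, had 2.35 FPKM and a median share of 8.27% of the alpha FPKM. The share of Lama1 was lowest in AN6 at 4.74% and highest in GS4 at 20.1%, where Lama5 had its smallest share of 65.6%.

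**Figure D1:**
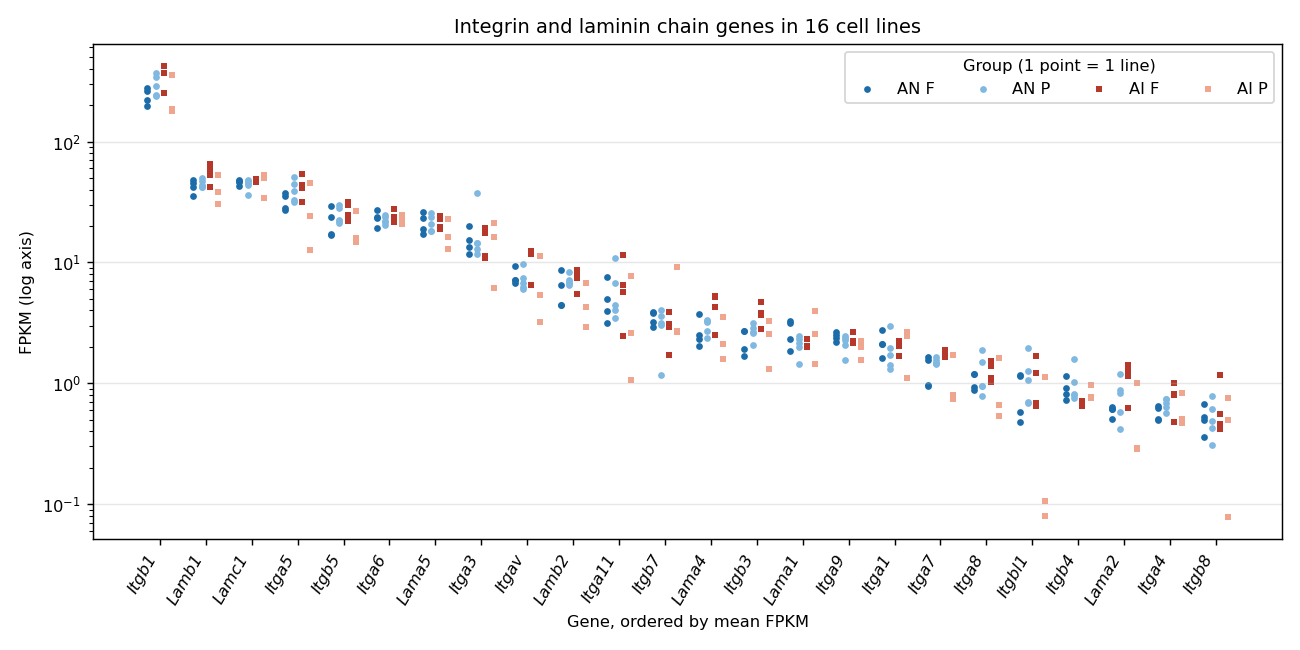
FPKM on a log axis of 24 of the 25 tested genes in each of the 16 lines, ordered by mean FPKM, with 1 point per line and a colour for each of the 4 groups. The points of F and P lines of the same kind overlap for every gene except those of Itgb4 in the AI lines, and Itgb1, at 180.5 to 418 FPKM, lies above all others.

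The 14 genes under the threshold were mainly chains of leukocytes, platelets and surface epithelia. Itgb2l was listed at 0 in all 16 lines, Itgad in 12, Itgax in 4 and Lamc3 in 3. The markers fixed for blood and endothelium were low in the same lines, with a highest mean log2(FPKM + 1) of 0.994 and 0.867. Of the 8 blood markers 7 were in the table and 2 were tested. These were the myeloid genes Cd68, at 4.62 to 11.4 FPKM, and Lyz2, at 0.484 to 3.17 FPKM, both highest in AN6, and the summed FPKM of the list ran from 6.21 to 15.3. The hemoglobin gene Hbb-b1 was listed at 0 in all 16 lines. For extraembryonic endoderm, a cell type rich in laminin-111, the highest mean was 0.833.

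The chains were then separated by whether they followed Col1a1, a main collagen of fibroblasts, across the lines. Col1a1 ranged from 27.4 FPKM in GS9 over a median of 121 FPKM to 231 FPKM in GS32. In the AN F lines it was 165 FPKM in AN1, 62.5 in AN9, 121 in AN15 and 94.2 in AN20. In the AN P lines it was 121 FPKM in AN2, 226 in AN3, 100.3 in AN5, 75.0 in AN6 and 137 in AN7. In the AI F lines it was 230.0 FPKM in AI3, 99.7 in AI7, 213 in AI10 and 231 in GS32. In the AI P lines it was 202 FPKM in AI9, 65.3 in GS4 and 27.4 in GS9, so both older lines of AI P lay well under AI9.

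Of the 25 chains tested, 15 followed Col1a1 with a Pearson r of at least 0.6 on log2(FPKM + 1) over the 16 lines. Over all 13184 other tested genes the share at this r was 13.4%. The 15 comprised 11 integrin and 4 laminin names, and the other 10 comprised 6 integrin and 4 laminin chains. The gene just inside the threshold was Itga8 with r = 0.61 and the gene just outside was Lamc1 with r = 0.59. These r values are a description over 16 lines that share 1 normalization, and they separate the chains by the same values that are described.

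The relation was closest for Itga11 (r = 0.92), Itgav (0.91), Lamb2 (0.90), Lamb1 (0.90), Lama4 (0.90) and Lama2 (0.90). Lamb2 is the second common laminin beta chain, and the alpha4 and alpha2 chains are found in the laminins of vessels, nerve and muscle. Spearman's rho for these 6 genes ran from 0.88 to 0.91. When AN9 and GS9, the 2 lines farthest from the median of Col1a1, were left out, their r stayed between 0.79 for Lamb2 and 0.92 for Lama2. Of the 15 genes, 14 were still at 0.6 or above, beside 9.72% of all genes. The 15 were chosen by r over lines that include the remaining ones, so this count is a description.

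**Figure D2:**
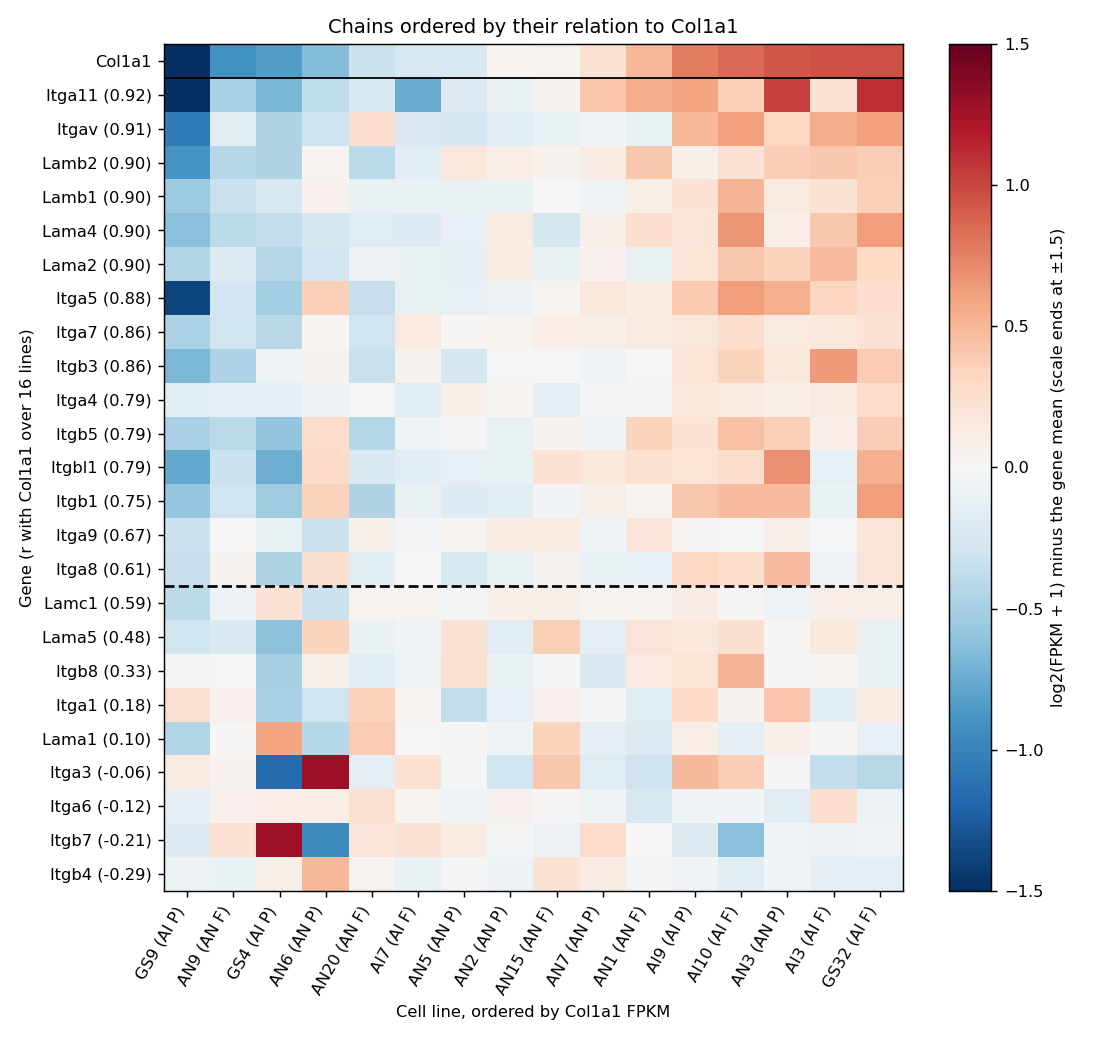
Log2(FPKM + 1) of Col1a1 and of 24 of the 25 tested genes, each minus its mean over 16 lines, with lines ordered by Col1a1 from GS9 at 27.4 FPKM to GS32 at 231 FPKM and genes ordered by their r with Col1a1. The 15 genes above the dashed line pass from blue on the left to red on the right, whereas Itga3 and Itgb7 under it have single lines, AN6 and GS4, with the strongest colours.

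Within the AN lines alone 9 of the 25 were at r of at least 0.6, beside 9.43% of all genes, and within the AI lines alone 17 of the 25, beside 21.2% of all genes. All 9 genes chosen in the AN lines were also at r of at least 0.6 in the 7 AI lines, which had not chosen them. Of all genes chosen in this way in the AN lines, 75.5% were, so this count is not far from the background. The closest relation in the AN lines was that of Itga11 with r = 0.96, and the closest in the AI lines that of Itgav with r = 0.99. Itgav had an r of only 0.56 in the AN lines, where AN20 held 9.36 FPKM of Itgav at 94.2 FPKM of Col1a1.

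The size of the relation differed between followers. Per unit of log2(FPKM + 1) of Col1a1, Itga11 was higher by 0.75 on the same scale, Itga5 by 0.51 and Itgav by 0.48, while Itgb1 was higher by 0.33 and Lamb1 by 0.28. Itga11 was 1.06 FPKM in GS9, a median of 4.70 FPKM over the lines and 11.6 FPKM in GS32, a span of 10.9-fold. Lamb1 was 30.6 FPKM in GS9, a median of 44.5 FPKM and 64.8 FPKM in AI10, a span of 2.12-fold. GS9 held the lowest value of 12 of the 15 followers, and the highest lay in AI10 for 5, GS32 for 4, AI3 for 3, AN3 for 2 and AN1 for 1. Without GS9, 13 of the 15 were at r of at least 0.6, and 13 also when GS9 and GS32 were left out together. The 15 were chosen by r over lines that include the remaining ones. Both counts are thus largely set by the choice, and no share over all genes is given beside them.

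The mean of the fibroblast markers moved with Col1a1 as well (r = 0.95, a list of 20 that holds Col1a1 itself), and no marker of the list was at 0 in any line. With the other 19 markers as the reference in place of Col1a1, 14 of the 15 followers were at r of at least 0.6. The 15 were chosen by r with Col1a1 in the same lines, and the marker mean moved with Col1a1. The count was thus largely set by the choice, and no share over all genes is given beside it. The pluripotency markers had r = -0.35 with Col1a1, endoderm 0.43, blood -0.40 and endothelium 0.49. The part that fibroblasts of the feeder layer or differentiated cells have in these values was not tested.

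The start regions of a pair of followers, Itga11 and Lamb1, and of a pair of chains outside the followers, Itga3 and Lama5, are shown to let their base content be compared. They are RefSeq sequences of GRCm38.p6 from 250 bases before to 50 bases after the gene's start, 5′ to 3′ on the strand of the gene, with each GC box (GGGCGG on either strand) in capitals. They lie at chr9:62677605-62677904 on the plus strand, chr12:31265043-31265342 on the plus strand, chr11:95076665-95076964 on the minus strand and chr2:180225810-180226109 on the minus strand.
Itga11: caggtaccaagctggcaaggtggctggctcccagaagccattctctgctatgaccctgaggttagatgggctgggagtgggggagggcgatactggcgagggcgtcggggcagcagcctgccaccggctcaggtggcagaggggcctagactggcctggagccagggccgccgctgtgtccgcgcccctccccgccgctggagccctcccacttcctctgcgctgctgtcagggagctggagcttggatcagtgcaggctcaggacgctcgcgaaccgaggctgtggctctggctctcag
Lamb1: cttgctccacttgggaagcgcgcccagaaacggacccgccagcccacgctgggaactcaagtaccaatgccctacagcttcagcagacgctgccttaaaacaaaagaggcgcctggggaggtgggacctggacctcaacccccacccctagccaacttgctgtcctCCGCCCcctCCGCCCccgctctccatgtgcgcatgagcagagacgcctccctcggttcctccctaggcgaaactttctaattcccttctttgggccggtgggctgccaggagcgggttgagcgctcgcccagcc
Itga3: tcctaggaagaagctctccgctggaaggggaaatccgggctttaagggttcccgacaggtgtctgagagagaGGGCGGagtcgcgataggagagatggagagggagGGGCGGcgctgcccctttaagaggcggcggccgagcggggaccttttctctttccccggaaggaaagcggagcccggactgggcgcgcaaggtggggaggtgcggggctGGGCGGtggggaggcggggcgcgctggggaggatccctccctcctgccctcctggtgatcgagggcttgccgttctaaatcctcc
Lama5: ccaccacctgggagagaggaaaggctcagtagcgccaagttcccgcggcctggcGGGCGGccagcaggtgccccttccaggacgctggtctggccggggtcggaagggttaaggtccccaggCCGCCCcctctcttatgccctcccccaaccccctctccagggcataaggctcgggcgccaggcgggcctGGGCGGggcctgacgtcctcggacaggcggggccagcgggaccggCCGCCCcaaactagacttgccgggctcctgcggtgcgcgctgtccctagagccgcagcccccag

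A promoter sequence was matched for 25 of the 39 genes, among them 12 of the 15 followers and 5 of the 10 other tested chains. Itga3 had a pair of listed starts, of which the upstream one was used. The GC box was present in 8 of the 12 followers and in 2 of the 5 others, beside 35.7% of 32851 promoters of the same length. Lama5 held 4 of them, Itga3 held 3, Lamb1 held 2 and Itga11 none. The TATA box (TATAAA on either strand, 13.6% of promoters) was in none of the 17 windows. The AP-1 site (TGANTCA, 7.81%) was in that of Itga9 alone, and the CArG box, the site of serum response factor (1.63%), in that of Lama2 alone. These are matches of letters within short windows.

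**Figure D3:**
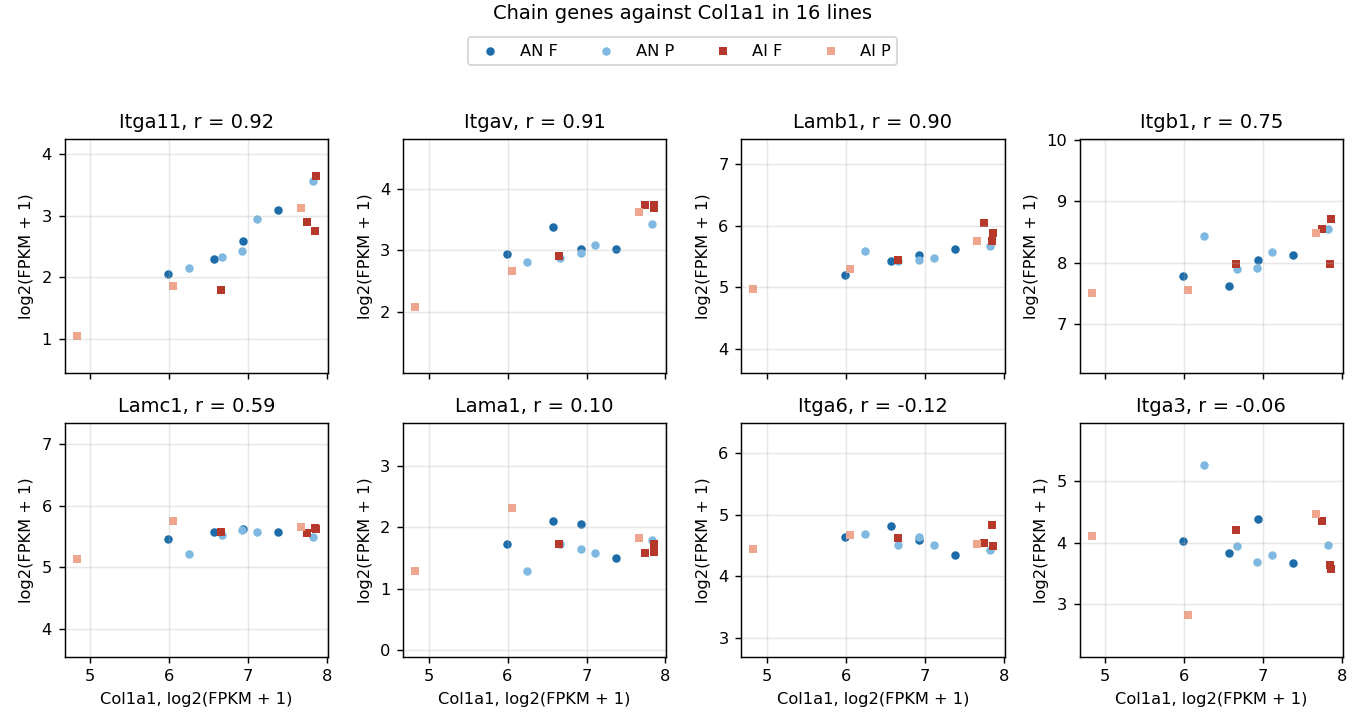
Log2(FPKM + 1) of 4 followers (upper row) and of 4 chains outside the followers (lower row) against that of Col1a1, 1 point per line, coloured by group, with the same height of scale in each panel. Itga11 climbs most steeply at r = 0.92, Lamb1 climbs at r = 0.90 with a lower slope, and Lamc1, Lama1, Itga6 and Itga3 have r of 0.59, 0.10, -0.12 and -0.06.

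Among the fibronectin and vitronectin receptor chains, nearly all followed. Itga5 had r = 0.88, from 12.7 FPKM in GS9 over a median of 36.5 FPKM to 54.0 FPKM in AI10, and its r was 0.96 without AN6, which held 44.5 FPKM. Itgb3, a partner of the alpha v chain, had r = 0.86 and Itgb5 had r = 0.79. Itgb8, a further partner of the alpha v chain, did not follow with r = 0.33. Itga8 and Itgb8 are among the genes named here after their values were seen, as are Itga1, Itga4, Itga9, Lama3 and Lamb3.

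The laminin receptor chains were divided. Itga7, known from muscle, followed with r = 0.86. Itga6 was the steadiest of the 25 over the lines, from 19.3 FPKM in AN1 over a median of 22.7 FPKM to 27.5 FPKM in AI3, a span of 1.43-fold. Its r with Col1a1 was -0.12, with -0.71 in the AN lines and 0.27 in the AI lines. Itga3 had r = -0.06 and Itgb4, the partner of the alpha6 chain in epithelia, -0.29, the lowest of the 25.

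The laminin chains were divided too, within the same trimers. Lamb1, Lamb2, Lama2 and Lama4 followed, and Lamc1, the gamma chain that assembles with them, varied only 1.54-fold, from 34.3 FPKM in GS9 to 52.8 FPKM in GS4. The r of Lamc1 with Col1a1 dropped from 0.59 to 0.19 without AN9 and GS9. Lama5 had r = 0.48 and Lama1 had r = 0.10. The ratio of Lamb1 to Lamc1 was lowest in GS4 at 0.729, 0.937 in the median and highest in AI10 at 1.41.

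Chains were compared with each other over 18 pairs chosen with the values known. Most were pairs whose proteins join, but Itga3 with Itgb4 and Itga3 with Lamb3 were not. Itga5 and Itgb1, the chains of the fibronectin receptor, had r = 0.85 over the 16 lines, 0.99 in the AN lines and 0.83 in the AI lines. Itga6 and Itgb1 had r = -0.37, and Itga6 and Itgb4 had 0.18. Lama1 and Lamc1 had r = 0.73, with GS4 highest in both at 3.95 and 52.8 FPKM and GS9 lowest in both at 1.43 and 34.3 FPKM. Lamb1 and Lamc1 had r = 0.40, and this was -0.10 without AN9 and GS9.

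AN6 stood apart from the other lines in single chains, which were named after their values were seen. It held 37.3 FPKM of Itga3, and the next line was AI9 with 21.1 FPKM. Lamb3, a laminin beta chain of epithelia, was under the threshold for testing at a mean of 0.365 FPKM, and AN6 was highest in it too, with 1.22 FPKM beside 0.541 FPKM in AI10. Itga3 and Lamb3 had r = 0.71 over the 16 lines, and 0.38 without AN6, so their relation rested largely on that line. Lama3, a laminin alpha chain of epithelia, was 0.402 FPKM in AN6 and 0.432 FPKM in AN15. Itgb6, an integrin beta chain of epithelia, was 0.0855 FPKM in AN6 and highest in AI9 with 0.187 FPKM, so not every such chain was high in AN6.

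In AN6 the share of Itga3 in the integrin alpha FPKM was 30.1%, beside a median of 15.1%. AN6 was also highest in Itgb4 with 1.58 FPKM, lowest in Itgb7 with 1.16 FPKM and second lowest in Lamc1 with 36.0 FPKM. In the same line the mean of the pluripotency markers was the lowest at 6.60 and that of the endoderm markers the highest at 0.833. Of the endoderm list Foxa2, at 6.50 FPKM, Sox17, at 1.13 FPKM, and the nearly absent Afp and Apoa1 were highest in AN6. The others, among them Gata4, Gata6, Sox7 and Dab2, were highest in other lines. Lama1 was only 1.44 FPKM in AN6, close to the lowest value of 1.43 FPKM in GS9. The part of both marker lists in the values of AN6 was not tested.

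GS4 was the other line that stood apart, with 9.16 FPKM of Itgb7 beside at most 4.07 FPKM elsewhere, 3.95 FPKM of Lama1 and 6.09 FPKM of Itga3, the lowest value of Itga3. The blood markers had their highest mean in GS4 as well, 0.994. Of that list Gata1, at 0.709 FPKM, and the nearly absent Ptprc, at 0.0644 FPKM, were highest in GS4. Cd68, Lyz2 and Csf1r were highest in AN6 and Pf4 in AN3. The summed FPKM of the list was highest in AN6 at 15.3 and was 13.9 in both GS4 and GS9. The part of the blood markers in the values of GS4 was not tested.

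**Figure D4:**
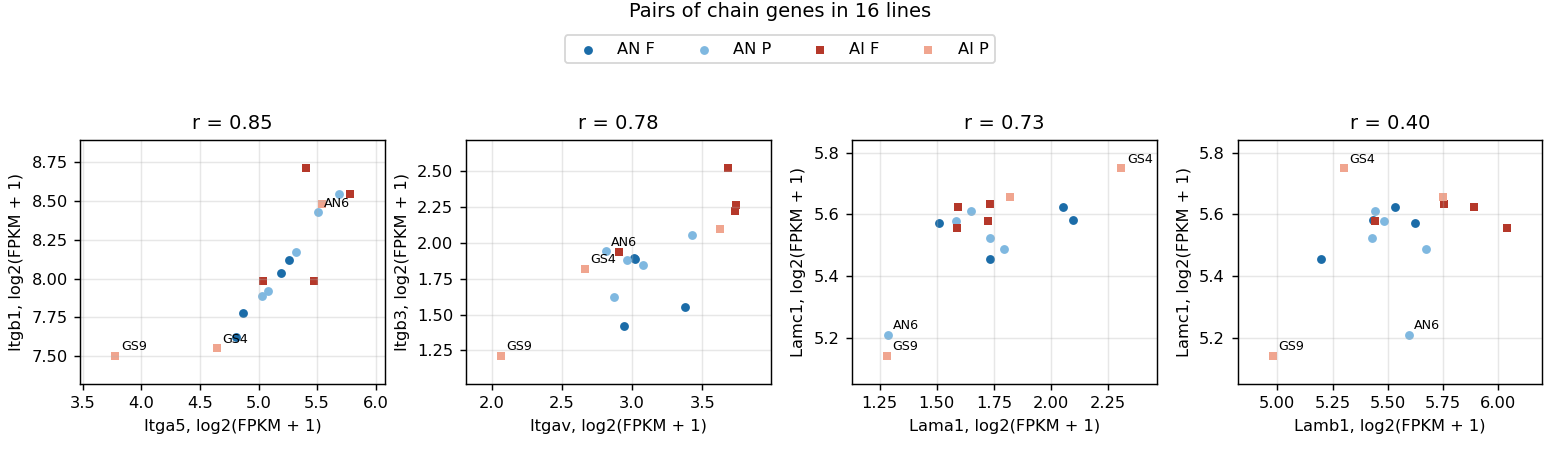
Log2(FPKM + 1) of 4 pairs of chains, 1 point per line, coloured by group, with AN6, GS4 and GS9 named. Itga5 and Itgb1 have r = 0.85 with GS9 at the lower end, Itgav and Itgb3 0.78, Lama1 and Lamc1 0.73, and Lamb1 and Lamc1 only 0.40.

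The AN F lines were compared with the AN P lines to ask which chains differ with the pluripotency state in nuclear transfer cells. No chain passed an adjusted p of 0.05 in limma, and neither did any of the 13185 tested genes, which is 0% of them. At an unadjusted p under 0.05 there were 0 of 25 chains in limma, beside 3.02% of all genes higher and 2.99% lower. No chain was without overlap between the groups, beside 0.584% of all genes with all AN F lines above and 0.713% with all below.

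The smallest p-values among the chains were those of Itga5, Itgb1 and Lama1. Itgb1 was 278 FPKM in AN1, 219 in AN9, 261 in AN15 and 197 in AN20, and 241 FPKM in AN2, 372 in AN3, 236 in AN5, 343 in AN6 and 288 in AN7. The groups overlapped, with a mean ± SD of 239 ± 37.4 FPKM (n = 4) in AN F and 296 ± 60.6 FPKM (n = 5) in AN P. The difference in log2(FPKM + 1) was -0.30 ± 0.16 (SE, limma, adjusted p = 0.636). For Itga5 it was -0.30 ± 0.16 and for Lama1 0.24 ± 0.15, with the same adjusted p in limma. Without AN20, as without AN6, the difference of Lama1 was 0.16. By exact permutation over the 126 splits of the AN lines, two-sided, no chain of the 25 had p under 0.05, and the smallest p possible was 0.0159.

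The AI F lines were compared with the AI P lines for the same question in induced cells. In limma 0 of 25 chains and 0% of all genes passed an adjusted p of 0.05. At an unadjusted p under 0.05 there were 4 chains with higher values in AI F (3.47% of all genes) and none with lower values (4.3% of all genes). The 4 chains were Itga7, Lamb2, Lama2 and Lama4. All 4 are followers of Col1a1, and their adjusted p in limma was 0.521.

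Itga7 was 1.69 FPKM in AI3, 1.66 in AI7, 1.89 in AI10 and 1.80 in GS32, and 1.71 FPKM in AI9, 0.800 in GS4 and 0.735 in GS9. Only GS4 and GS9 lay below the AI F lines, and AI9 lay within them. The difference was 0.44 ± 0.16 on the log2 scale. Lamb2 was 8.65 FPKM in AI3, 5.51 in AI7, 7.47 in AI10 and 8.39 in GS32, and 6.69 FPKM in AI9, 4.29 in GS4 and 2.93 in GS9, with a difference of 0.63 ± 0.25. Lama4 differed by 0.65 ± 0.27 and Lama2 by 0.49 ± 0.20. In each of the 4 the value of AI9 was within the range of the AI F lines. With GS9 and GS32 left out, the difference of Itga7 was 0.31, that of Lamb2 0.34, that of Lama2 0.37 and that of Lama4 0.38, at an adjusted p of 0.920 in limma. There were then 0 of 25 chains at an unadjusted p under 0.05 in either direction in limma, beside 0.584% of all genes higher and 0.865% lower. Without GS9 alone the difference of Lamb2 was 0.40.

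Only Itgb4 had groups without overlap, with 0.669 FPKM in AI3, 0.719 in AI7, 0.652 in AI10 and 0.687 in GS32, all below 0.762 FPKM in AI9, 0.967 in GS4 and 0.757 in GS9. Over all genes 3.19% had all AI F lines below and 1.69% all above, so 1 of 25 is close to the background. Its difference was -0.12 ± 0.08 with an adjusted p of 0.530 in limma. The exact permutation p over 35 splits, two-sided, was 0.0571, which is the smallest that 4 against 3 lines allow. With GS9 and GS32 left out the groups did not overlap either, but fewer lines are more easily separated. No share over all genes is given for that set, so this is a description. The difference was then -0.15.

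**Figure D5:**
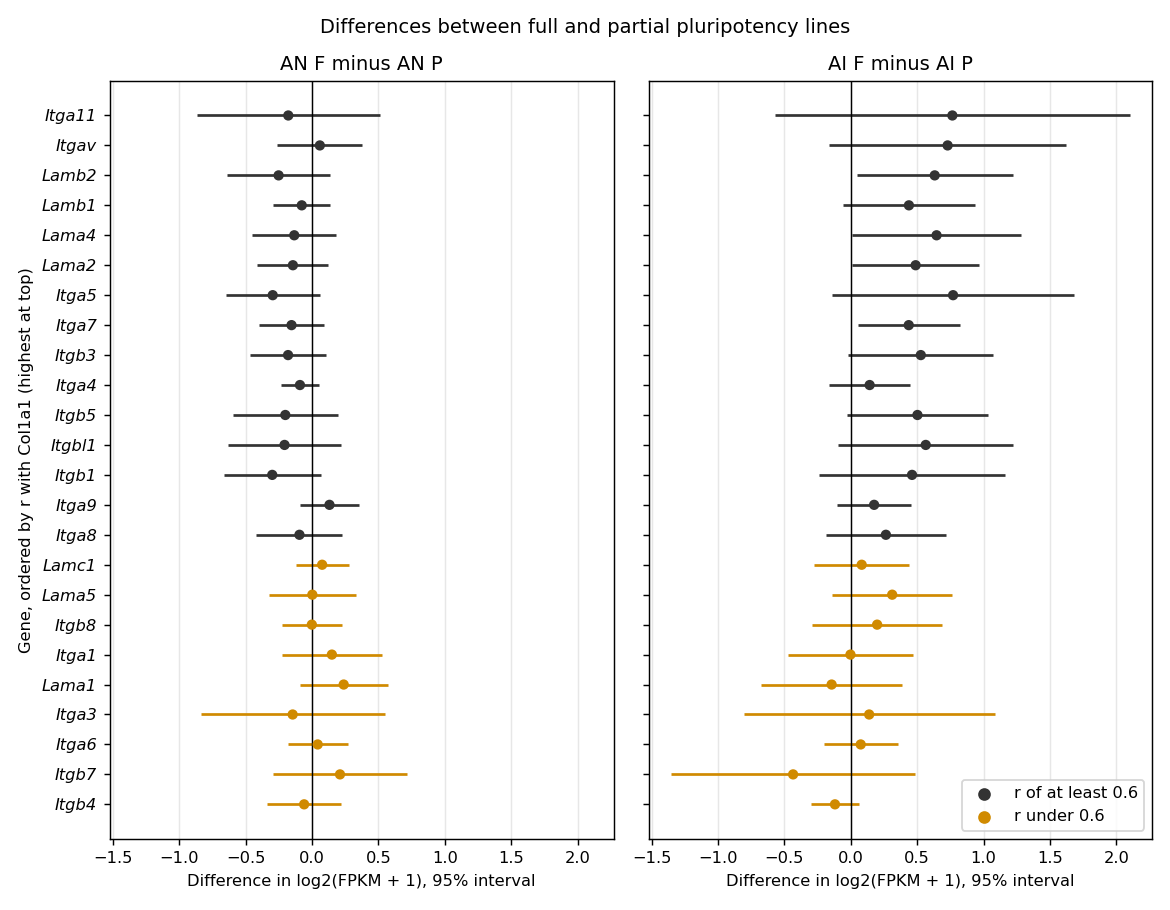
Difference in log2(FPKM + 1) with its 95% interval from limma for 24 of the 25 tested genes, AN F minus AN P on the left and AI F minus AI P on the right, ordered by r with Col1a1 and coloured by whether r is at least 0.6. On the right all 15 followers lie above 0 with a median of 0.50, on the left 13 of 15 lie below 0 with a median of -0.15, and all but 4 of the intervals hold 0.

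The followers and the other chains had different differences in the AI lines. The 15 followers had 15 positive differences of AI F against AI P with a median of 0.50, and the 10 others had 5 positive ones with a median of 0.04, beside a median of -0.04 over all genes. In the AN lines the followers had 2 positive and 13 negative differences with a median of -0.15, and the others 6 positive ones with a median of 0.02, beside -0.01 over all genes. With GS9 and GS32 left out, 14 of 15 followers were positive in the AI lines with a median of 0.27, and 6 of 10 others with a median of 0.05. Since the followers were separated with these same lines, these counts are a description. With Col1a1 as a term in the fit, the median of the followers was 0.04 in the AI lines, with 9 of 15 positive, and -0.08 in the AN lines. These smaller medians are partly set by the choice of the followers by their r with Col1a1, so they too are a description.

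The fibroblast marker mean moved in the same way, from 4.42 to 5.51 in AI F and from 3.59 to 5.12 in AI P, where AI9 held 5.12 and GS9 3.59. In AN F it was 4.31 to 5.15 and in AN P 4.56 to 5.34. The part of these cells in the differences was not tested.

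The effect in the AI lines was set against that in the AN lines in 1 fit with an interaction term. In limma 0 of 25 chains and 0% of all genes passed an adjusted p of 0.05. At an unadjusted p under 0.05 there were 10 chains with a higher effect in AI, beside 8.3% of all genes, and none with a lower one, beside 8.34%. Itga7 had a difference of effects of 0.59 ± 0.20, Lamb2 0.88 ± 0.30 and Itgb3 0.71 ± 0.26, all with an adjusted p of 0.290 in limma. The widest was that of Itga5 with 1.07 ± 0.41. Without GS9 the value of Itgb3 was 0.46. With Col1a1 as a term in the fit, 0 of 25 chains were at an unadjusted p under 0.05 in limma. The median of the followers was then 0.21 with 12 of 15 positive, beside 0.70 with 15 of 15 without that term. The followers were chosen by their r with Col1a1 in these same lines. A smaller median with that term is therefore partly set by the choice and is a description. The ranges of the fibroblast marker mean given above moved with this comparison too, and their part was not tested.

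The result of this comparison depended on AI9. Without it 4 of 25 chains passed an adjusted p of 0.05 in limma, beside 4.94% of all genes, all 4 with a higher effect in AI. They were Itga5 with a difference of 1.51 ± 0.32 (adjusted p = 0.0339), Itga7 with 0.80 ± 0.16 (adjusted p = 0.0309), Lama2 with 0.84 ± 0.22 (adjusted p = 0.0433) and Lamb2 with 1.13 ± 0.28 (adjusted p = 0.0427). AI P then consisted of the older lines GS4 and GS9, while AI F held 3 new lines beside the older GS32, and the part of the derivation was not tested. With GS9 and GS32 left out and AI9 kept, 0 of 25 chains passed. In that fit 0 chains had a higher effect in AI at an unadjusted p under 0.05 in limma, beside 3.03% of all genes, and 1 with a lower one, Lama1 at -0.62, beside 3.34%. Of the followers 14 of 15 were positive, with a median of 0.46.

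The AN lines were compared with the AI lines to ask whether the way of reprogramming left a difference in these chains. In limma 0 of 25 chains and 0% of all genes passed an adjusted p of 0.05, and at an unadjusted p under 0.05 there were 0 of 25 chains in limma, beside 2.16% of all genes higher in AN and 1.36% lower. The median difference of the 25 was -0.00, with 12 positive. Itgb4 had 0.14 ± 0.08, Itgb3 -0.20 ± 0.13 and Itgbl1 0.23 ± 0.17, each with an adjusted p of 0.999 in limma. Leaving out 1 line at a time, Itgb3 ran from -0.32 without GS9 to -0.10 without AI9, Itgbl1 from 0.15 without GS9 to 0.39 without AI9, and Itgb4 from 0.09 without AN6 to 0.17 without GS4. Without both GS9 and GS32 the difference of Itgb3 was -0.31 (unadjusted p = 0.0220, adjusted p = 0.903 in limma). With a pseudocount of 0.1 the difference of Itgbl1 was 0.70. By exact permutation over 11440 splits, two-sided, Itgb4 had p = 0.0404 and was the only one of 25 under 0.05. A single p under 0.05 among 25 tests can arise by chance. It was not adjusted and no share over all genes is given beside it, so it is a description. The mean log2(FPKM + 1) of Itgb4 was 0.95 in the 9 AN lines and 0.80 in the 7 AI lines, which overlapped. Itgb4 was low, at a mean of 0.860 FPKM over all lines, and was highest in AN6 at 1.58 FPKM.

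How large a difference the lines could have hidden varied with the chain. The interval of AI F against AI P ran from -1.35 to 0.48 for Itgb7 and for Itga5 from -0.14 to 1.68 on the log2 scale. For Itga6 the interval ran from -0.20 to 0.35 and for Lamc1 from -0.27 to 0.44. In AN F against AN P the interval of Lamb1 ran from -0.29 to 0.14.

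The proteins that connect integrins to the cell's interior and the partners of laminin in the matrix were taken from a list of 37 genes, of which 36 were in the table and 34 were tested. In limma none of the 34 passed an adjusted p of 0.05 in any of the 4 comparisons. At an unadjusted p under 0.05 there was 1 of 34 for AN F against AN P (3.02% of all genes), 7 for AI F against AI P (3.47%), 2 for AN against AI (2.16%) and 15 for the difference of effects (8.3%), all with higher values, or a higher effect, in the group named first or in AI. With GS9 and GS32 left out there were 0 of 34 for AI F against AI P (0.584% of all genes) and 3 with a higher effect in AI (3.03%). Npnt, which encodes nephronectin, a matrix ligand of the integrin with the alpha8 chain, had 0.48 ± 0.16 and Sdc1, a syndecan, 0.44 ± 0.17 in AI F against AI P, with an adjusted p of 0.521 in limma. Without GS9 and GS32 these were 0.46 and 0.27 (adjusted p = 0.920 in limma). Lims1, an adaptor of integrin-linked kinase, had 0.32 ± 0.14 in AN F against AN P (adjusted p = 0.636 in limma) and 0.23 ± 0.11 in AN against AI, where Vasp, an actin regulator, had 0.23 ± 0.09 (adjusted p = 0.999 in limma for both). Npnt had -0.23 ± 0.11 in AN F against AN P and, with Nid1, the linker of laminin and collagen IV, the smallest p for the difference of effects, at 0.71 ± 0.19 and 1.08 ± 0.37 (adjusted p = 0.290 in limma).

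Of these 34 genes, 21 were at r of at least 0.6 with Col1a1, beside 13.4% of all genes. They were 11 of 19 adaptors, 8 of 10 matrix partners and 2 of 5 other laminin receptors or partners. The closest, named after their values were seen, were Tns1 (0.98), Tnc (0.98), Tln1 (0.97) and Fn1 (0.97). Tns1 and Tln1 encode tensin and talin, which tie integrins to actin, and Tnc and Fn1 encode tenascin and fibronectin. Bcam, a receptor of the laminin alpha5 chain, had r = -0.19 and Nid2 had -0.04, so that here too not every partner of laminin followed.

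All 39 genes were found in the annotation of mm9, the build of the deposited values. Among the tested chains, 12 share their span with another annotated gene, and whether reads were counted by strand is not given in the sources used here. Itga1, on chromosome 13 from 115748287 to 115892172, holds Pelo on the same strand. Itga4, on chromosome 2 from 79095583 to 79173280, shares bases with Cerkl on the opposite strand and Itga7, on chromosome 10 from 128370869 to 128395333, with Mettl7b. Lamb1, on chromosome 12 from 31950099 to 32014509, shares its span with Gm11053 on the opposite strand. Itga6, Itgav, Lamc1, Lama2 and Itgb4 are also among the 12, with overlapping non-coding genes or pseudogenes. Values of all 12 genes are uncertain to that extent. Itga11 (chromosome 9, 62525633 to 62631789), Itga3 (chromosome 11, 94905788 to 94938115) and Lama5 (chromosome 2, 179911078 to 179960564) share their span with no other gene.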

How the data were processed

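Total RNA of 16 lines was sequenced as single-end reads. According to the methods, the authors mapped reads to mm9 with TopHat 2.1.0 and deposited FPKM values, computed with Cufflinks 2.2.1, as 1 value per gene and line. HTSeq is also named in the submitters' processing notes, with no role. Read counts were not used here. The values were taken as deposited and transformed to log2(FPKM + 1), so a fold change of a low gene is understated. Genes with a mean of at least 0.5 FPKM were tested.

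Groups were compared in R 4.3.3 by the moderated test of limma 3.58.1, with its trend option on, and p-values were adjusted after Benjamini and Hochberg over all 13185 tested genes. AN and AI were fitted apart for F against P, and all 16 lines together for AN against AI and for the difference of effects. Cuffdiff, the test of the study, needs reads. The limma script was tested on simulated data. Exact two-sided permutation tests were computed in Python 3.11.15 with the definition of scipy 1.17.1. Correlations are Pearson's r unless Spearman's rho is named, are descriptions and carry no p.

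The genes, the lists and the tests were chosen with earlier results of these data known. Named chains are those of laminin-111 and laminin-511, 6 common receptor chains, the 6 with the highest and 4 with the lowest r with Col1a1, and the 3 with the smallest p in each comparison. Other names were chosen after their values were seen. Alternatives were another pseudocount (0.1), other filters (5 FPKM or none), quantile normalization, no trend, passage, derivation or Col1a1 as a term, and leaving out each line. Gene positions came from gencode vM1 on mm9 and promoters from RefSeq on GRCm38.p6. One gene of the set is counted in the totals but not reported here.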

Additional observations from a re-analysis of the deposited data

Results flagged for a closer look

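In 75 groups of 4 or 5 lines, 4 held a line whose gap to the nearest other line, as a share of the range, was above Dixon's 95% critical value, and 3.75 would be flagged by chance at 1 in 20. Itga3 was 37.3 FPKM in AN6, beside 11.8 to 14.5 FPKM in the other AN P lines. Itgb7 was 1.16 FPKM in AN6, beside 3.01 to 4.07 FPKM in the others of AN P. Itgav was 6.50 FPKM in AI7, beside 11.8 to 12.3 FPKM in the other AI F lines. Itga9 was 2.64 FPKM in GS32, beside 2.15 to 2.22 FPKM in the others of AI F.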

How the results depend on the processing

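No chain passed an adjusted p of 0.05 in limma under any alternative for AN F against AN P, AI F against AI P or AN against AI. At an unadjusted p there were 4 chains and 7 machinery genes for AI F against AI P, 10 and 15 for the difference of effects, and 1 and 2 machinery genes for AN F against AN P and AN against AI. When each line was left out in turn, 0 to 4 chains and 0 to 13 machinery genes passed for the difference of effects. The highest counts came without AI9, where 4.94% of all genes passed, and the cause was not tested. The count of 15 chains at r of at least 0.6 with Col1a1 was 9 in the AN lines alone and 7 at a minimum of 5 FPKM, where fewer chains are tested, and 13 to 16 when each line was left out. All 9 and all 7 were among the 15. In the other alternatives it was 13 to 17. No paired analysis was possible because replicate numbers only follow the order of the records. Each group has 3 to 5 lines, so only large differences could be detected. The exact test of AI F against AI P cannot fall below 0.0571. FPKM values come without read counts, so no counting interval can be given.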
